A study of Mus musculus with 12 samples.

Results

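The 36 genes described here mark leukocytes or belong to their main functions. They were taken as a set of known markers of macrophages and other myeloid cells, T and NK cells, B cells and granulocytes. The set was not chosen by its values, but earlier results of these data were known by then. It makes up 36 of 18193 genes on the array. LSL-MYCN;hGFAP-Cre mice gave 9 pancreatic tumors and 3 pituitary tumors, each hybridized to 1 Affymetrix MG-430_2.0 array. In these mice a human GFAP promoter drives Cre, which switches on a MYCN transgene, so tumors of both sites carry the same transgenes. All tumors were untreated when excised. The paper gives these mice a mixed genetic background from different strains, FvB and B6 among them, so other alleles can differ between mice. The labels give no age or sex for single tumors. Tumors keep the numbers of their labels, with pituitary tumors 6, 7 and 8, whose labels name the brain. Some mice of this model had tumors at both sites, but the labels do not tell which arrays share a mouse, and every tumor entered the tests as an independent sample.

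Solid tumors hold blood-derived cells among the tumor cells. Macrophages take up debris and present antigen, and depend on the receptor encoded by Csf1r. T cells recognize antigen through a receptor that signals by the CD3 chains, B cells through surface immunoglobulin that signals by Cd79a and Cd79b, and granulocytes carry large stores of the calcium-binding proteins S100a8 and S100a9. The brain has its own resident macrophages, the microglia, and normal pancreas holds macrophages in islets and stroma. In whole tumor tissue fewer cells of a type and less RNA per cell cannot be told apart.

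Values are log2 signals of 1 probe set per gene, the one with the highest mean over the 12 tumors among those that carry its symbol alone, and 24 of the 36 genes have only 1 such probe set. A difference is the pancreatic mean minus the pituitary mean of these log2 signals. Array medians were 5.45 to 5.69 in pancreatic tumors and 5.53 to 5.61 in pituitary tumors, and Pearson's r between arrays was 0.803 to 0.985. The site labels were borne out by 4 of 5 genes of the endocrine pancreas, Hhex, Pdx1, Foxa2 and Isl1, higher in pancreatic tumors in limma, and by 4 of 4 genes of the anterior pituitary, Six6, Pomc, Lhx3 and Pitx1, which were lower. Isl1 did not pass without pituitary tumor 6 (adjusted p = 0.0723) or 8 (adjusted p = 0.0749). Pdx1, a homeobox factor of islets, had a signal of 6.61 to 10.91 in pancreatic tumors and 3.75 to 3.97 in pituitary tumors. Signals of 16 of the 36 genes lay above the array median in all 12 tumors. Those of 4 genes, Itgam, Cd3g, Nkg7 and Gzmb, lay at or below it in all 12.

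Promoters of 26 of the 36 genes were found in the RefSeq table (build GRCm38.p6), each from 250 bases before to 50 bases after the annotated start. The 7 shown belong to gene pairs or groups whose signals are compared below. The first 2 belong to the class II genes H2-Aa (chr17:34287774-34288073, minus strand) and H2-Eb1 (chr17:34305617-34305916, plus strand). Capitals mark CTGATTGG, the letters of the Y box of class II promoters, which is bound by NF-Y and stands 51 bases before the start of H2-Aa and 62 before that of H2-Eb1.
H2-Aa: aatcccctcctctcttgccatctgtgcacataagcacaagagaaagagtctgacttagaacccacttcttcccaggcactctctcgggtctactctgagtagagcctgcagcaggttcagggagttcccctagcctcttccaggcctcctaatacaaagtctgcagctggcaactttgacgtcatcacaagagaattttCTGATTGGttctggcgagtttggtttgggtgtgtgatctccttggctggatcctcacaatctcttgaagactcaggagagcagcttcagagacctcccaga
H2-Eb1: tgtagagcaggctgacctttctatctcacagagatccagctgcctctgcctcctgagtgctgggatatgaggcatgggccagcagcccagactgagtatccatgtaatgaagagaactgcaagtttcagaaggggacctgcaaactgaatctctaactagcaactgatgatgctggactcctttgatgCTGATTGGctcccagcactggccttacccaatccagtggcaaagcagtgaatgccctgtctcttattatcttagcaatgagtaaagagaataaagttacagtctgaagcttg

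The next 3 belong to C1qb (chr4:136886151-136886450, minus strand), C1qc (chr4:136892865-136893164, minus strand) and Cd79a (chr7:24897247-24897546, plus strand). In these, capitals mark AGGAAGT or its reverse complement ACTTCCT, a motif of ETS factors, the family of the myeloid and B cell regulator PU.1. It stands 53 bases before the start of C1qb, 195 before that of C1qc and 55 before that of Cd79a.
C1qb: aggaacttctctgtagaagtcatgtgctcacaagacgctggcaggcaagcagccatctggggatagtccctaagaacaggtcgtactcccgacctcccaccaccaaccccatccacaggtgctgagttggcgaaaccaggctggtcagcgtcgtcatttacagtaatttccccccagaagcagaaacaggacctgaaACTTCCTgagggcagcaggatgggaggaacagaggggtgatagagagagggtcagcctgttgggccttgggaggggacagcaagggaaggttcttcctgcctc
C1qc: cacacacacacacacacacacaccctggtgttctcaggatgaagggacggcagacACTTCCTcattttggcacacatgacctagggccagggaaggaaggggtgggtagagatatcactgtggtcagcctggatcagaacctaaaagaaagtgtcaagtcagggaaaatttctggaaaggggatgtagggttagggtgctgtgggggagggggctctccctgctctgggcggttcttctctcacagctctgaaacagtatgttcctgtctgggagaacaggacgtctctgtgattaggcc
Cd79a: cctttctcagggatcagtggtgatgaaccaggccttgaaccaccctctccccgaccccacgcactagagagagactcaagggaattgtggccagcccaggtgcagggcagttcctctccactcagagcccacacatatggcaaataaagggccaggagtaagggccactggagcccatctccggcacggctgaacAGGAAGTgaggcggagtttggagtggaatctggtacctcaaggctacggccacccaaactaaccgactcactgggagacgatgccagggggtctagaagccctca

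The last pair belongs to the neighbouring granulocyte genes S100a8 (chr3:90668821-90669120, plus strand) and S100a9 (chr3:90695672-90695971, minus strand). Capitals mark TATAAA, the core of a TATA box, in both, 30 bases before the start of S100a8 and at the annotated start of S100a9, and ACTTCCT in S100a8, 172 bases before its start.
S100a8: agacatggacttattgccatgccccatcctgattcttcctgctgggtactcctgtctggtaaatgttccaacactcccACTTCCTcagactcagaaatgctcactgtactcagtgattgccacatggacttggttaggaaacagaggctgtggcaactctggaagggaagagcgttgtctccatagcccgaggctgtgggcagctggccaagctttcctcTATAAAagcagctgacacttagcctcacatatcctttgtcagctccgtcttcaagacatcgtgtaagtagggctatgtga
S100a9: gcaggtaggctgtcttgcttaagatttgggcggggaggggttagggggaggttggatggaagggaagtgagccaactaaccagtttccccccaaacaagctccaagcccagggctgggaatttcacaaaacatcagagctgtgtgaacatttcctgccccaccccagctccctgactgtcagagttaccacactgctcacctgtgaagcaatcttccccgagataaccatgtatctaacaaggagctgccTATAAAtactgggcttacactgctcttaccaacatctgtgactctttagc

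These 3 motifs were searched on both strands and were chosen after values of these data were known. CTGATTGG was found in promoters of 2 of 26 leukocyte genes, H2-Aa and H2-Eb1, against 4.7% of 27025 genes, each with all its promoters of this length in the table (32851 in all). AGGAAGT was found for 10 of the 26 genes, Ptprc, C1qb, C1qc, Fcgr1, Lyz2, Mrc1, Cd3d, Cd3e, Cd79a and S100a8, against 10.7% of all genes. TATAAA was found for 4 of 26, Ptprc, Laptm5, S100a8 and S100a9, against 15.7% of all genes. The 2 motifs of the S100a8 promoter do not overlap, and a match describes the sequence and no binding.

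The first question is whether leukocyte genes differ between tumors of the 2 sites. None of the 36 genes passed the threshold of 0.05 in limma after Benjamini-Hochberg adjustment over all 45037 probe sets, in either direction. The background was 4.63% of all probe sets (1.18% higher and 3.45% lower in pancreatic tumors) and 5.92% of the 18193 genes. Adjusted p-values of the 36 genes were 0.0857 to 0.982. At an unadjusted p under 0.05 there were 3 of 36 genes (Itgax, C1qa and Cx3cr1), against 23.5% of all genes, and 2 (Itgax and Cx3cr1) had an exact permutation p under 0.05, two-sided. For 0 of the 36 genes did the groups stand fully apart, against 9.42% of all genes. The difference was above 0 for 24 genes and below 0 for 12, with a median of 0.22 over the 36 genes and 0.038 over all genes.

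Leukocyte genes spread widely among the pancreatic tumors themselves. The range over the 9 tumors had a median of 2.63 over the 36 genes and 1.33 over all genes. The narrowest range was 0.42, of Cd4 on its brighter probe set, and the widest were 4.96 and 5.36, of S100a9 and S100a8. Pancreatic tumor 10 held the highest pancreatic signal of 22 of the 36 genes, against 8.31% of all genes, and tumors 2 and 5 held that of 5 genes each. Among these 22 were 4 of 4 genes of all leukocytes, 7 of 16 myeloid genes, 3 of 3 genes of antigen presentation, 5 of 8 genes of T and NK cells and 3 of 3 B cell genes, but 0 of 2 granulocyte genes. The 22 include Itgam, Cd3g and Nkg7, at or below the array median in all 12 tumors. Nkg7 had 5.073 in tumor 10 and 5.071 in tumor 9.

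**Figure D1:**
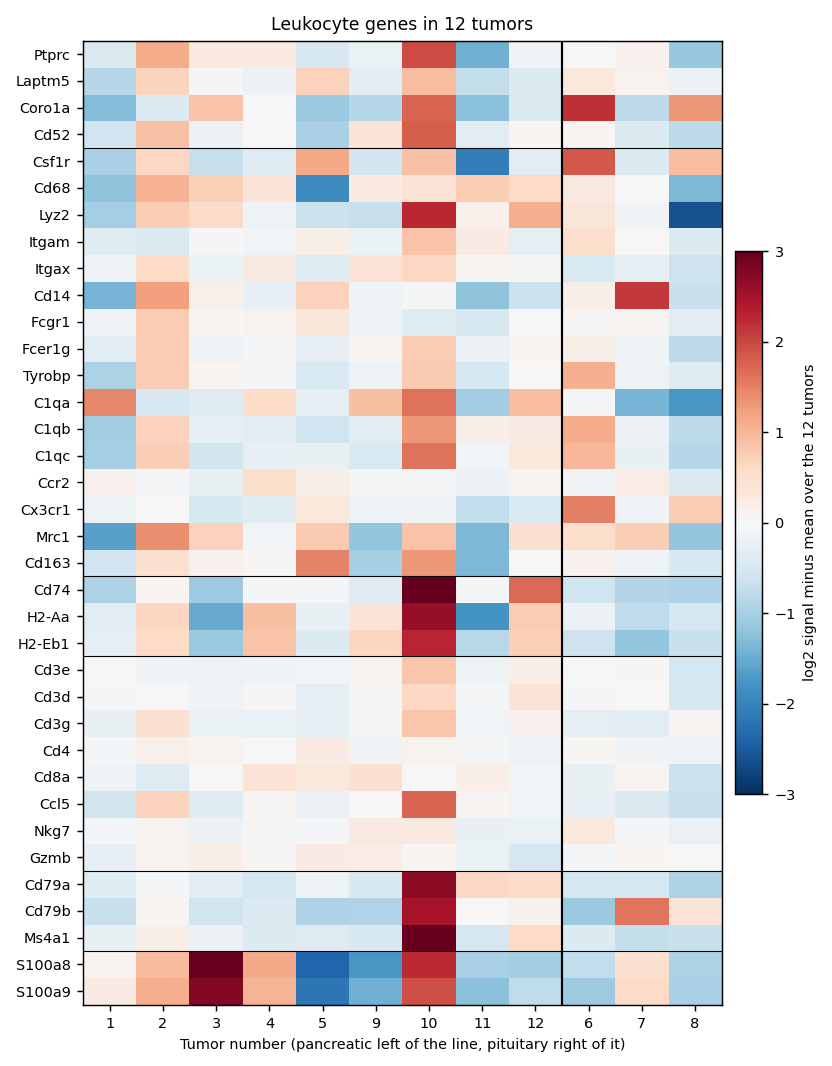
Log2 signal of the 36 leukocyte genes (rows, in blocks by role) in 12 tumors (columns, pancreatic tumors left of the line and pituitary tumors right of it), shown as the signal minus the gene's mean over the 12 tumors, with values beyond 3 drawn as 3. The column of pancreatic tumor 10 is above the mean in most rows, and the S100a8 and S100a9 rows run from low in tumor 5 to high in tumor 3.

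Genes of all leukocytes lay above the array median in every tumor and had their pancreatic maximum in tumor 10. Ptprc encodes CD45, the phosphatase on the surface of nearly all leukocytes. Its signal was 5.59 at the lowest (tumor 11), 6.91 at the median and 8.99 at the highest (tumor 10) in the pancreatic tumors, and 7.05, 7.15 and 5.88 in pituitary tumors 6, 7 and 8. The pituitary values lay inside the pancreatic range. Cd52, a small surface protein of lymphocytes and monocytes, had 5.95, 6.93 and 8.74 as lowest, median and highest signal in pancreatic tumors and 6.97, 6.51 and 6.14 in the pituitary tumors (difference 0.51, SE 0.47, adjusted p = 0.594). It was 0.29 without pancreatic tumor 10 and 0.30 without pituitary tumor 8. Laptm5, a lysosomal membrane protein of leukocytes, had 6.90 to 8.68 in pancreatic tumors and 7.58 to 8.08 in pituitary tumors. Coro1a, an actin regulator of leukocytes, stood out for its spread within the pituitary group. Its signal was 5.84, 6.71 and 8.88 as lowest, median and highest in the pancreatic tumors, against 9.33, 6.36 and 8.42 in pituitary tumors 6, 7 and 8. The means were 6.83 ± 1.03 (SD, n = 9) in pancreatic tumors, against 8.04 ± 1.52 (SD, n = 3) in pituitary tumors (difference -1.20, SE 0.70, adjusted p = 0.374). Pituitary tumor 6 was above all 9 pancreatic tumors, pituitary tumor 8 above 8 of them, and pituitary tumor 7 above 4. The difference was -0.56 without pituitary tumor 6, -2.04 without pituitary tumor 7 and 0.48 without pituitary tumors 6 and 8.

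Among macrophage genes, Csf1r, Lyz2 and the C1q chains lay above the array median in every tumor, and different tumors led for different genes. Csf1r, the receptor for the macrophage growth factors Csf1 and Il34, had 7.02 at the lowest (tumor 11), 8.70 at the median and 10.21 at the highest (tumor 5) in pancreatic tumors, against 10.92, 8.67 and 10.01 in the pituitary tumors. The difference was -1.05 (SE 0.63, adjusted p = 0.392), and the other 2 probe sets of the gene gave -0.72 and 0.0036. On the brightest probe set, pituitary tumors 6 and 8 were again high and 7 was not. The difference was -0.52 without tumor 6, -1.64 without tumor 7 and 0.15 without tumors 6 and 8. Lyz2, the lysozyme of macrophages and granulocytes, had 8.59, 9.75 and 11.86 as lowest, median and highest signal in the pancreatic tumors and 9.97, 9.49 and 7.00 in the pituitary tumors (difference 1.04, SE 0.71, adjusted p = 0.452). It was 0.13 without pituitary tumor 8 and 1.62 without pituitary tumor 6. Cd68, a lysosomal glycoprotein of macrophages, had 4.62 to 7.56 in pancreatic tumors, with the lowest values in tumors 5 and 1, and 5.15 to 6.77 in the pituitary tumors. On the brightest Csf1r probe set, tumor 5 thus held the highest Csf1r and the lowest Cd68 signal of the pancreatic tumors. On the other 2 probe sets of Csf1r, tumor 10 was the highest pancreatic tumor instead, so this contrast in tumor 5 rests on 1 probe set. Cd14, a co-receptor for bacterial lipopolysaccharide, was highest in pituitary tumor 7. It had 5.12, 6.38 and 7.74 as lowest, median and highest signal in pancreatic tumors and 6.70, 8.63 and 5.84 in pituitary tumors 6, 7 and 8 (difference -0.72, SE 0.60, adjusted p = 0.548). It was 0.066 without pituitary tumor 7 and -1.33 without pituitary tumor 8.

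The 3 chains of complement C1q, which macrophages secrete, did not follow 1 pattern. C1qb had 7.62, 8.36 and 9.96 and C1qc 6.76, 7.55 and 9.39 as lowest, median and highest signal in the pancreatic tumors, and on the probe sets used both were lowest in tumor 1 and highest in tumor 10. The other 2 probe sets of C1qb, whose identifiers mark possible cross-hybridization, were instead highest in tumor 5 (9.36 and 9.85) and lowest in tumor 11 (6.88 and 7.59). In pituitary tumors 6, 7 and 8, C1qb had 9.75, 8.47 and 7.85 and C1qc 8.75, 7.54 and 6.92. C1qa instead had 10.98 in pancreatic tumor 1, its second highest value, and 8.50, 10.09 and 11.17 as lowest, median and highest pancreatic signal, against 9.48, 8.15 and 7.80 in the pituitary tumors. The means of C1qa were 9.90 ± 0.94 (SD, n = 9) in pancreatic tumors, against 8.48 ± 0.89 (SD, n = 3) in pituitary tumors, a difference of 1.42 (SE 0.57, 95% interval 0.18 to 2.67, unadjusted p = 0.0285 and adjusted p = 0.193 in limma, exact permutation p = 0.050). C1qa and C1qb, which are neighbours of C1qc on chromosome 4, had r = 0.040 over the 9 pancreatic tumors (Spearman's rho -0.05, adjusted exact permutation p = 0.919 and 0.912). This r holds for the brightest C1qb probe set, and C1qa is read by 1 probe set.

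Signalling adaptors of myeloid cells moved together over the pancreatic tumors. Tyrobp and Fcer1g encode adaptors that carry the signal of activating receptors. Tyrobp had 7.09, 7.99 and 8.82 as lowest, median and highest pancreatic signal and 9.09, 7.88 and 7.68 in pituitary tumors 6, 7 and 8, and Fcer1g had 7.40 to 8.46 in pancreatic tumors and 6.91 to 7.88 in pituitary tumors. Both were lowest in tumor 1 and highest in tumors 2 and 10 among the pancreatic tumors. Fcgr1, the high-affinity receptor for IgG, had 5.29 to 6.52 in pancreatic tumors and 5.44 to 5.85 in pituitary tumors. Ccr2, the chemokine receptor of blood monocytes, had 5.39 to 6.14 in pancreatic tumors and 5.18 to 5.84 in pituitary tumors. Itgam, the integrin alpha M chain, had 3.46 to 4.74 in pancreatic tumors and 3.47 to 4.41 in pituitary tumors, at or below the array median throughout. The ranges of Fcgr1, Ccr2 and Itgam over the pancreatic tumors were 1.23, 0.74 and 1.29, against a median of 1.33 over all genes.

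Cx3cr1 and Itgax came nearest to a difference between the sites. Cx3cr1, the receptor for fractalkine on microglia and some monocytes, had 5.16, 5.74 and 6.21 as lowest, median and highest signal in pancreatic tumors, against 7.40, 5.79 and 6.65 in pituitary tumors 6, 7 and 8. Pituitary tumors 6 and 8 were above all 9 pancreatic tumors, and pituitary tumor 7 lay among them. The means were 5.66 ± 0.31 (SD, n = 9) in pancreatic tumors, against 6.61 ± 0.81 (SD, n = 3) in pituitary tumors, a difference of -0.96 (SE 0.29, 95% interval -1.59 to -0.33, adjusted p = 0.0857 in limma, exact permutation p = 0.018). It passed with array weights (-1.28, adjusted p = 0.00721, background 11.2% of probe sets) and without pituitary tumor 7 (-1.37, adjusted p = 0.00951, background 5.55%). It was -0.57 without pituitary tumor 6 (adjusted p = 0.389), -0.13 without pituitary tumors 6 and 8, and -0.43 as the mean of all probe sets. A dimmer probe set of the gene gave a difference of 0.11 (adjusted p = 0.772). Itgax, the integrin alpha X chain of dendritic cells and some macrophages, had 5.22, 5.63 and 6.21 as lowest, median and highest pancreatic signal and 5.13, 5.30 and 4.96 in the pituitary tumors. The difference was 0.60 (SE 0.21, 95% interval 0.13 to 1.06, adjusted p = 0.146, exact permutation p = 0.018), and it passed with array weights (0.61, adjusted p = 0.0404). Pancreatic tumor 5 alone lay within the pituitary range of Itgax.

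Mrc1, the mannose receptor, and Cd163, the scavenger receptor for haptoglobin-bound hemoglobin, mark macrophages resident in tissue. Mrc1 had 4.36, 6.47 and 7.39 as lowest, median and highest pancreatic signal and 6.53, 6.74 and 4.81 in pituitary tumors 6, 7 and 8. Cd163 had 3.36 to 6.19 in pancreatic tumors, highest in tumors 5 and 10, and 4.23 to 4.83 in the pituitary tumors. Both were low in pancreatic tumors 1, 9 and 11.

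**Figure D2:**
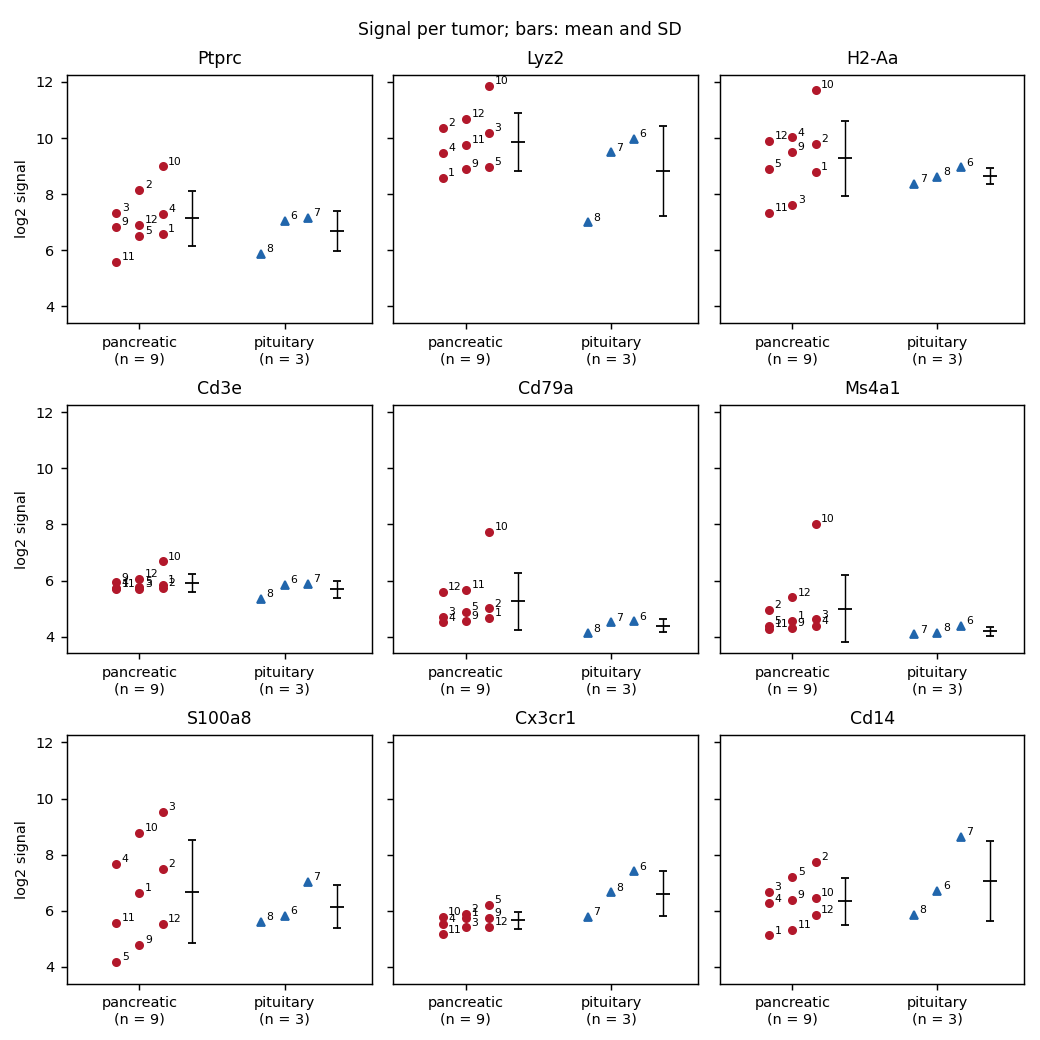
Log2 signal of 9 leukocyte genes in each tumor, with pancreatic tumors as circles on the left, pituitary tumors as triangles on the right, tumor numbers beside the points and bars for the mean and SD. The groups overlap in every panel; tumor 10 lies alone above the other pancreatic tumors for Cd3e (6.68), Cd79a (7.73) and Ms4a1 (8.01).

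Genes of antigen presentation on class II molecules were highest in pancreatic tumor 10 and had ranges of 3.39 to 4.41 among the pancreatic tumors. Cd74 encodes the invariant chain that guides class II molecules, of which H2-Aa and H2-Eb1 encode an alpha and a beta chain. Cd74 had 6.88, 7.93 and 11.11 as lowest, median and highest signal in the pancreatic tumors, against 7.38, 7.09 and 7.05 in the pituitary tumors (difference 1.06, SE 0.73, adjusted p = 0.456). It was 0.70 without pancreatic tumor 10. Tumor 12, with 9.66, was the next highest for Cd74, and the other 7 pancreatic tumors had 8.02 or less. H2-Aa had 7.32, 9.51 and 11.73 as lowest, median and highest pancreatic signal and 8.95, 8.37 and 8.62 in pituitary tumors (difference 0.64, SE 0.73, adjusted p = 0.671). It was 0.33 without pancreatic tumor 10. This H2-Aa probe set and 2 of the other 3 have identifiers that mark possible cross-hybridization, and the last of the 4, marked as shared by related transcripts, gave -0.22. H2-Eb1 had 6.54, 8.26 and 9.94 in pancreatic tumors, in the same order, and 7.05, 6.51 and 6.99 in pituitary tumors (difference 1.08, SE 0.58, adjusted p = 0.333). H2-Aa and H2-Eb1, whose promoters with the Y box are printed above, were both lowest in pancreatic tumors 3 and 11. The SD of the 3 genes was 1.04 to 1.34 in pancreatic tumors (n = 9) and 0.18 to 0.30 in pituitary tumors (n = 3).

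T and NK cell genes had the least spread, and their differences between the sites were 0.61 or less in size. Of these, Cd3g, Nkg7 and Gzmb lay at or below the array median in all 12 tumors, where a small spread says little. Cd3e, Cd3d and Cd3g encode the CD3 chains of the T cell receptor. Cd3e had 5.69, 5.77 and 6.68 as lowest, median and highest pancreatic signal and 5.85, 5.88 and 5.33 in pituitary tumors 6, 7 and 8. Tumor 10 stood apart from the other pancreatic tumors, which reached 6.05 at most. Cd3d had 5.44 to 6.33 and Cd3g 3.32 to 4.45 in pancreatic tumors, also highest in tumor 10, and 5.25 to 5.71 and 3.31 to 3.70 in pituitary tumors. Cd4, the co-receptor of helper T cells, had 6.36 to 6.78 in pancreatic tumors and 6.37 to 6.58 in pituitary tumors. A dimmer Cd4 probe set had 4.83 to 5.51 in pancreatic tumors, highest in tumor 12, and 4.57 to 4.75 in pituitary tumors (difference 0.45, adjusted p = 0.162 in limma). Cd8a, the co-receptor of cytotoxic T cells, had 6.30 to 7.12 in pancreatic tumors and 6.02 to 6.74 in pituitary tumors on a probe set whose identifier marks possible cross-hybridization, and at most 5.50 on its other 4 probe sets. Ccl5, a chemokine of T cells and macrophages, followed tumor 10 more clearly. It had 5.29, 5.83 and 7.59 as lowest, median and highest pancreatic signal and 5.59, 5.41 and 5.14 in pituitary tumors (difference 0.61, SE 0.39, adjusted p = 0.422). Nkg7 and Gzmb, proteins of cytotoxic granules, had 4.58 to 5.07 and 4.45 to 5.20 in pancreatic tumors and 4.62 to 5.12 and 4.91 to 5.01 in pituitary tumors.

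B cell genes set pancreatic tumor 10 apart more than any other role did. Cd79a and Cd79b encode the signalling chains of the B cell receptor, and Ms4a1 encodes CD20 of mature B cells. Cd79a had 7.73 in tumor 10 and 4.51 to 5.66 in the other 8 pancreatic tumors (median of all 9, 4.89), against 4.55, 4.51 and 4.12 in the pituitary tumors (difference 0.87, SE 0.56, adjusted p = 0.428), and the difference was 0.56 without tumor 10. Ms4a1 had 8.01 in tumor 10 and 4.28 to 5.40 in the other 8 (median of all 9, 4.57), against 4.37, 4.08 and 4.13 in the pituitary tumors (difference 0.80, SE 0.65, adjusted p = 0.537), and the difference was 0.42 without tumor 10. A dimmer probe set of Ms4a1 had 5.13 in tumor 10 and 2.65 to 3.22 in the other pancreatic tumors. Tumors 11 and 12 were next for Cd79a and tumor 12 for Ms4a1. Cd79b had 7.55 in tumor 10 and 4.17 to 5.21 in the other pancreatic tumors, but 3.97, 6.69 and 5.47 in pituitary tumors 6, 7 and 8. The order of the pituitary tumors for Cd79b was thus not that for Cd79a or Ms4a1. In the RefSeq table Cd79b is the neighbour of the growth hormone gene Gh on chromosome 11.

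The granulocyte genes S100a8 and S100a9 had the widest spread. S100a8 had 4.17 at the lowest (tumor 5), 6.63 at the median and 9.52 at the highest (tumor 3) in the pancreatic tumors, against 5.81, 7.04 and 5.60 in the pituitary tumors (difference 0.53, SE 1.02, adjusted p = 0.809). S100a9 had 4.04, 6.46 and 9.00 in the same pancreatic order, against 5.13, 6.82 and 5.25 in the pituitary tumors (difference 0.64, SE 0.95, adjusted p = 0.749). Tumors 3 and 10 were highest for both, and tumors 5 and 9 were lowest. Pituitary tumors lay within the pancreatic range, with tumor 7 the highest of the 3. A list of 9 further neutrophil genes ran otherwise. Its mean, each gene minus its mean over the 12 tumors, was -0.12 in pancreatic tumor 3 and -0.064 in tumor 5, and highest in tumor 2 (0.63). The same mean of S100a8 and S100a9 was 2.88 in tumor 3 and -2.28 in tumor 5. With 1 tumor left out the differences were 0.18 to 0.98 for S100a8, lowest without pancreatic tumor 3, and 0.31 to 1.18 for S100a9, lowest without pancreatic tumor 3, both highest without pituitary tumor 7. Differences of both genes turned below 0 without pancreatic tumors 2, 3 and 4 (-0.24 and -0.094) or without pituitary tumors 6 and 8 (-0.36 and -0.45).

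**Figure D3:**
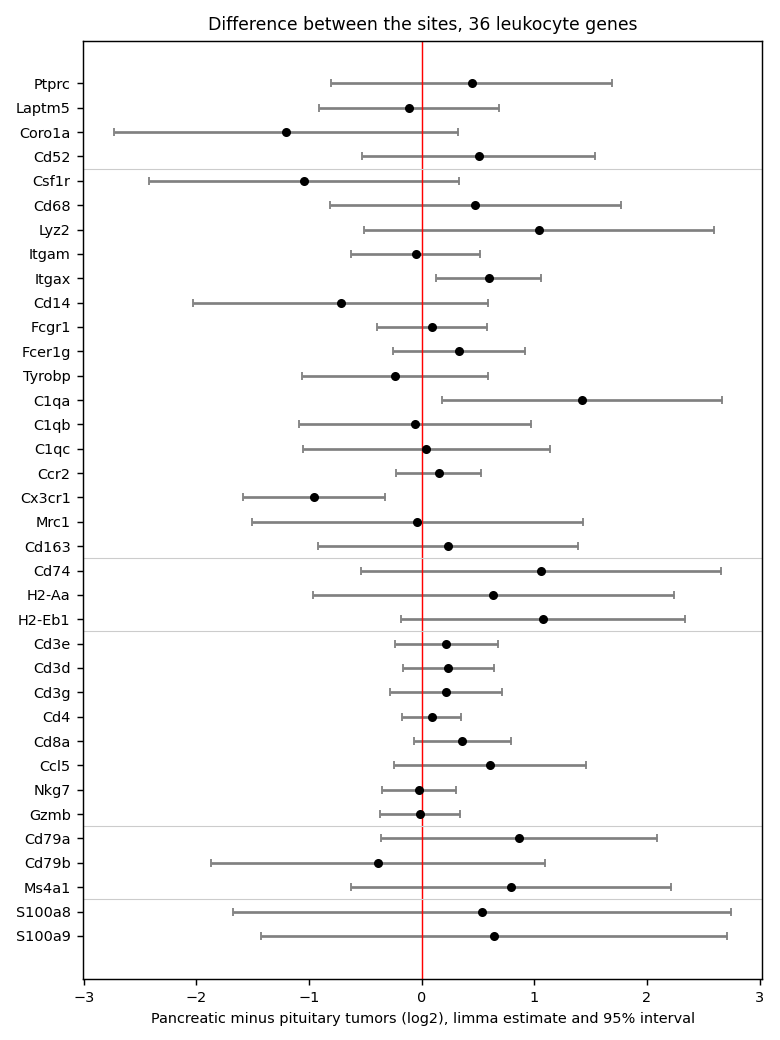
Difference of each of the 36 genes in log2 signal, pancreatic minus pituitary, as the limma estimate (point) with its 95% interval that is not adjusted for multiple tests. The intervals of Itgax, C1qa and Cx3cr1 lie off 0, and 0 of the 36 genes passed after adjustment.

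How leukocyte genes varied together was read from 15 pairs over the 9 pancreatic tumors, with exact permutation tests of pairings, two-sided and adjusted over the 15 pairs. By Pearson's r, 3 of 15 pairs passed. S100a8 and S100a9 had r = 0.99 (exact permutation p = 1.10e-05, adjusted p = 0.000165) and rho = 0.97 (adjusted p = 0.00248), and r = 0.99 without tumors 3 and 5. Tyrobp and Fcer1g had r = 0.93 (exact permutation, adjusted p = 0.00339) and rho = 0.82 (adjusted p = 0.0538), and r = 0.91 without tumors 1 and 10. Mrc1 and Cd163 had r = 0.82 (exact permutation, adjusted p = 0.0361) and rho = 0.87 (adjusted p = 0.0338), and r = 0.75 without tumors 1 and 11. These 3 pairs kept r of at least 0.77 whichever pancreatic tumor was left out, but Mrc1 and Cd163 did not pass without tumor 1, 3, 4, 9, 11 or 12 (adjusted exact permutation p up to 0.0725).

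Of the pairs that did not pass, 4 with r of 0.77 or more had r of 0.50 or less without tumor 10. Cd79a and Ms4a1 had r = 0.92 (exact permutation, adjusted p = 0.0503) but rho = 0.47 (adjusted p = 0.505), and r = 0.45 without tumor 10, but 0.99 without tumor 11 (adjusted exact permutation p = 0.00744). Without tumors 10 and 11, the 2 farthest from the median of Cd79a, r was 0.92 again, with tumor 12 then the highest for both genes. Cd3e and Cd79a had r = 0.87 (adjusted exact permutation p = 0.0808) and rho = 0.12, with r = 0.18 without tumor 10 and -0.53 without tumors 10 and 12. Cd74 and H2-Aa had r = 0.77 (adjusted exact permutation p = 0.0503) and rho = 0.65, with r = 0.50 without tumor 10, 0.40 without tumors 10 and 12, and 0.87 without tumor 11 (adjusted exact permutation p = 0.00753). Cd3e and Cd3g had r = 0.78 (adjusted exact permutation p = 0.0710) and rho = 0.37, with r = 0.24 without tumor 10, 0.015 without tumors 10 and 12, and 0.97 without tumor 2 (adjusted exact permutation p = 0.0219). Ptprc and Csf1r had r = 0.68 (adjusted exact permutation p = 0.0832) and rho = 0.42. Their r was 0.59 without tumor 10, 0.47 without tumor 11 and 0.18 without both, but 0.96 without tumor 5 (adjusted exact permutation p = 0.00614). For Csf1r and Cd68, r was -0.28, and for Itgam and S100a8 it was 0.23, with adjusted exact permutation p = 0.570 and 0.621. Every r of Csf1r holds for its brightest probe set, and its other probe sets ordered the tumors differently. The remaining 5 pairs had r of 0.040 to 0.55 and did not pass.

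**Figure D4:**
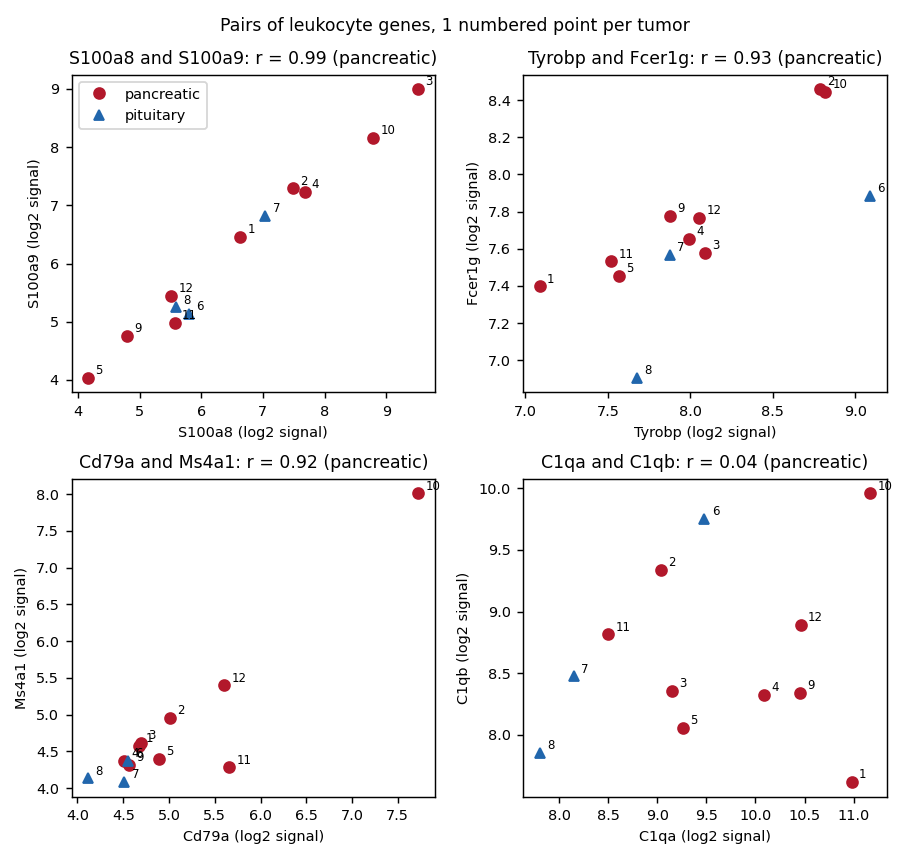
Signals of 4 pairs of leukocyte genes, 1 numbered point per tumor, with pancreatic tumors as circles and pituitary tumors as triangles, both axes in log2 signal. S100a8 and S100a9 lie along a line (r = 0.99 over the pancreatic tumors), tumor 10 alone is far out for Cd79a and Ms4a1, and C1qa and C1qb show r = 0.040.

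Genes outside the 36 with the most similar course over the 9 pancreatic tumors were sought among 5263 genes with a range of at least 2, by Pearson's r as a description. For Csf1r these were S100a10 (0.94), Maf (0.92), Tgfbr2 (0.91), Gas6 (0.90) and Slc43a3 (0.89). For S100a8 these were Pkib (0.95), Chil3 (0.92), Tmem267 (0.90), Dock10 (0.86) and Bid (0.86). Chil3, a chitinase-like protein of myeloid cells, had its highest signals in tumors 3 (6.56) and 10 (6.49). For Cd79a these were Alox15 (0.98), Mzb1 (0.96), Igkv6-14 (0.96), Pirt (0.96) and Igkv8-30 (0.95), of which Mzb1, an endoplasmic reticulum protein of B and plasma cells, and both immunoglobulin kappa segments belong to the B lineage. For Cd3e these were Wt1 (0.96), Pirt (0.95), Igkv6-14 (0.95), Pou2af1 (0.94) and Adgrd1 (0.94). Without tumor 10, r was between 0.71 and 0.89 for the genes nearest Cd79a and between 0.41 and 0.67 for those nearest Cd3e.

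Further genes of the same cell types were read from 15 lists, and few passed in limma. Of 10 measured genes of tissue-resident macrophages, 1 passed as higher in pancreatic tumors and 0 as lower. This was Lyve1, a hyaluronan receptor of lymphatic vessels and of some macrophages, with 6.04, 7.68 and 8.51 as lowest, median and highest pancreatic signal and 4.93, 5.77 and 4.77 in pituitary tumors. The groups did not overlap, and the difference was 2.39 (SE 0.47, adjusted p = 0.0142, or 0.0861 without pituitary tumor 6 and 0.0899 without pituitary tumor 8). Adgre1, an adhesion receptor on the surface of mouse macrophages, had 5.89 to 8.17 in pancreatic tumors and 7.48, 6.57 and 5.94 in pituitary tumors 6, 7 and 8. Mertk, a receptor by which macrophages take up dying cells, had 5.64 to 7.94 in pancreatic tumors and 8.45, 6.49 and 7.74 in these pituitary tumors (difference -1.29, SE 0.52, adjusted p = 0.197). Of 8 genes of class I presentation, H2-K1, a class I heavy chain, was higher by 1.54 (SE 0.37, adjusted p = 0.0345), with 11.64 to 13.27 in pancreatic tumors and 10.66 to 11.75 in pituitary tumors. It passed in 10 of 22 other settings. Beta 2 microglobulin, B2m, the partner of class I chains, had 8.93 to 13.34 in pancreatic tumors and 10.77 to 13.46 in pituitary tumors. Of 9 genes of T cell signalling, 1 was lower, Thy1, a surface protein of T cells and also of neurons, by 4.86 (adjusted p = 9.37e-05), with 5.81 to 7.71 in pancreatic tumors and 10.47 to 12.18 in pituitary tumors. Cd2 and Cd5 of that list, receptors on T cells, had 3.58 to 6.21 and 3.68 to 4.39 in pancreatic tumors and 3.61 to 3.90 and 3.79 to 3.82 in pituitary tumors. Of 8 genes of mast cells, Kit, the stem cell factor receptor, was lower by 3.01, with 4.06 to 6.96 in pancreatic tumors and 7.53 to 9.97 in pituitary tumors (SE 0.64, adjusted p = 0.0200, or 0.0649 without pituitary tumor 6 and 0.132 without pituitary tumor 8). The mast cell protease genes Cpa3 and Mcpt4 had 3.79 to 4.75 and 4.60 to 5.15 in pancreatic tumors and 3.61 to 4.28 and 4.15 to 4.73 in pituitary tumors.

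In the remaining 11 lists 0 genes passed in limma, with 14 of 98 at an unadjusted p under 0.05 (23.5% of all genes), and list medians ran from -0.41 (microglia) to 0.40 (B and plasma cells), against 0.038 over all genes. These hold 10 myeloid regulators and oxidase genes, 9 genes of microglia, 7 of dendritic cells, 7 of class II presentation, 7 of NK and cytotoxic cells, 11 of B and plasma cells, 9 of neutrophils, 8 of checkpoints and regulatory T cells, 14 chemokines and growth factors, 12 of leukocyte actin and signalling and 4 of high endothelium. Spi1, which encodes PU.1, had 5.85 to 6.67 in pancreatic tumors and 5.56 to 5.99 in pituitary tumors (adjusted p = 0.113), and Cybb, the phagocyte oxidase, had 5.13 to 8.31 in pancreatic tumors and 5.26 to 6.22 in pituitary tumors. Of class II genes, H2-Ab1 had 7.01 to 10.75 in pancreatic tumors and 7.67 to 8.56 in pituitary tumors, and Ciita, the regulator of class II promoters, had 5.26 to 6.04 in pancreatic tumors and 5.12 to 5.75 in pituitary tumors. Flt3 and Xcr1 of dendritic cells had 5.69 to 6.27 and 3.96 to 4.74 in pancreatic tumors and 6.13 to 6.97 and 3.55 to 4.01 in pituitary tumors. Ncr1 and Klrd1, receptors of NK cells, had 4.38 to 4.88 and 2.80 to 3.40 in pancreatic tumors and 4.22 to 4.56 and 2.93 to 3.25 in pituitary tumors, with no tumor apart. Cxcr2 and Ngp of neutrophils had 3.33 to 4.34 and 4.62 to 6.68 in pancreatic tumors and 3.36 to 3.77 and 4.95 to 5.02 in pituitary tumors. Pdcd1 and Cd274, an inhibitory receptor of T cells and its ligand, had 3.13 to 4.06 and 5.17 to 8.85 in pancreatic tumors and 3.39 to 4.47 and 5.67 to 6.79 in pituitary tumors. Csf1 and Il34, the ligands of Csf1r, had 6.27 to 6.68 and 4.59 to 5.68 in pancreatic tumors and 6.00 to 6.35 and 4.59 to 6.37 in pituitary tumors. Vav1 and Was, regulators of the leukocyte cytoskeleton, had 4.82 to 5.04 and 3.76 to 4.96 in pancreatic tumors and 4.72 to 5.20 and 3.77 to 4.49 in pituitary tumors.

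Of the 11 genes of the B and plasma cell list, 9 had their highest pancreatic signal in tumor 10. The exceptions were Ly6d, highest in tumor 2 with 7.03 against 6.56 in tumor 10, and Fcer2a, highest in tumor 5 with 4.55 against 4.51 in tumor 10. For Ighm and Jchain, tumors 12 and 5 were next. Ighm, the IgM heavy chain, had 12.02 in pancreatic tumor 10, 11.92 in tumor 12 and 9.57 in tumor 5, 6.30 to 7.26 in the other 6, and 6.62 to 8.03 in pituitary tumors. Jchain, which joins secreted IgM, had 10.47, 8.86 and 8.43 in the same 3 tumors, 4.88 to 6.90 in the other 6, and 4.41 to 5.18 in pituitary tumors. Mzb1 had 8.05 in tumor 10, 6.96 in tumor 12 and at most 6.22 in the other 7. Tumor 5 had 4.89 for Cd79a and 4.40 for Ms4a1, within the range of the tumors with low Ighm. Pax5, a B cell regulator, and Cd22, a B cell receptor, had 5.19 to 5.83 and 5.81 to 7.39 in pancreatic tumors, both highest in tumor 10, and 4.99 to 5.17 and 5.65 to 6.13 in pituitary tumors. Cxcl13, the chemokine that draws B cells, had 10.64 in tumor 10 and 5.90 to 7.14 in the other pancreatic tumors, against 5.92 to 7.13 in pituitary tumors. Marco, a scavenger receptor of macrophages that line lymphoid tissue and spleen, had 8.00 in tumor 10 and 4.33 to 5.50 in the other 8. Glycam1 and Madcam1, adhesion molecules of the high endothelial vessels through which lymphocytes enter lymph nodes, had 7.36 and 5.58 in tumor 10 and 4.23 to 4.88 and 4.61 to 4.91 in the other 8, while Chst4 of the same vessels had 3.04 in tumor 10, its lowest pancreatic value. The mean of the 4 measured genes of high endothelium, each minus its mean over 12 tumors, was higher in tumor 2 (0.93) than in tumor 10 (0.85). The part of lymphoid tissue in the values of tumor 10 was not tested.

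Genes of other cell types also differed among tumors beside the leukocyte genes. In the microglia list, P2ry12, a purine receptor of microglia, had 3.64 to 4.05 in pancreatic tumors. In pituitary tumors 6, 7 and 8 it had 7.69, 3.85 and 6.04 (adjusted p = 0.0621 in limma). Cx3cr1, Csf1r and Coro1a had the same pituitary order on the probe sets used. A dimmer probe set each of Cx3cr1 (5.00, 4.51 and 4.46) and Csf1r (7.02, 6.43 and 6.26) was instead lowest in tumor 8. The remaining probe sets of Csf1r and Coro1a kept the order. The mean of the 16 myeloid genes, each minus its mean over 12 tumors, was 0.50, 0.0019 and -0.69 in pituitary tumors 6, 7 and 8. Gpr34, another receptor of microglia, had 2.89 to 3.75 in pancreatic tumors and 7.50, 3.31 and 4.95 in pituitary tumors. The order with pituitary tumor 6 highest, then 8, then 7 was found for 8 of the 9 microglia genes, and Sall1, highest in pituitary tumor 8, was the exception. The share of all genes with this order is not given here, so the count does not set microglia genes apart. Tmem119 and Sall1 had 5.43 to 7.47 and 4.78 to 8.76 in pancreatic tumors and 7.15, 5.72 and 6.10 for Tmem119 and 4.93, 4.52 and 5.07 for Sall1 in pituitary tumors. The mean of the 9 microglia genes, each minus its mean over 12 tumors, was -0.40 to 0.11 in pancreatic tumors and 1.27, -0.45 and 0.27 in pituitary tumors 6, 7 and 8. Genes of glia and neurons were also highest in pituitary tumors 6 and 8, with means of -1.46 to 0.32 for 5 glial and -2.27 to -0.27 for 4 neuronal genes in pancreatic tumors, against 4.44, 0.74 and 3.94 for glial and 2.76, 1.00 and 2.86 for neuronal genes in pituitary tumors 6, 7 and 8. Aqp4, Slc1a2 and Aldoc of glia and Slc17a6 and Gad1 of neurons passed as lower in pancreatic tumors in limma. With pituitary tumor 6 left out Aqp4, Aldoc and Gad1 did not pass, and Gad1 passed in 6 of 21 other settings and had a difference of 0.030 without pituitary tumors 6 and 8. Among the glial genes, Slc1a3 and Aqp4 had 5.38 to 5.92 and 2.91 to 7.61 in pancreatic tumors and 5.36 to 9.61 and 7.01 to 11.47 in pituitary tumors. The part of brain tissue in the Cx3cr1, Csf1r and Coro1a values of pituitary tumors 6 and 8 was not tested.

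In the pancreatic tumors, genes of liver and acinar cells varied too. Alb, the serum albumin of liver, had 15.01 in tumor 2, 13.42 and 13.65 in tumors 3 and 4, and 6.22 in tumor 10. The mean of 3 liver genes was 4.76, 3.27 and 3.44 in tumors 2, 3 and 4 and -1.81 to 1.12 in the other 6. Apoa1, an apolipoprotein of liver, had 5.10 to 14.63 in pancreatic tumors and 5.34 to 5.73 in pituitary tumors. The acinar mean was 4.43 and 3.53 in tumors 3 and 4, 1.97 in tumor 10 and at most 0.56 in the other 6. Of 5 acinar genes, Cela1 was higher by 3.91 (adjusted p = 0.00152), and Cpa1 had 5.05 to 12.30 in pancreatic tumors and 4.96 to 5.48 in pituitary tumors. Tumors 2, 3, 4 and 10 held the 4 highest S100a8 and S100a9 signals, and the part of these tissues in the S100a8 and S100a9 values was not tested. Tumor 2, which led for Mrc1, Cd14, Cd68, Fcgr1 and Fcer1g, also had 8.94 for Cxcl9, a chemokine that draws T cells, against 4.27 to 7.17 in the other pancreatic tumors. Endothelial genes had 0 of 6 passing and stromal genes 1 of 6, the collagen gene Col1a2, lower by 3.47 in pancreatic tumors (SE 0.62, adjusted p = 0.00779, or 0.0648 without pituitary tumor 6). Pecam1 and Cdh5 of endothelium had 4.78 to 7.06 and 6.33 to 8.45 in pancreatic tumors and 4.71 to 4.86 and 6.13 to 6.24 in pituitary tumors. Col1a1, another collagen gene, and Hba-a1 of red blood cells had 5.97 to 7.62 and 3.47 to 3.93 in pancreatic tumors and 5.86 to 6.75 and 3.58 to 3.91 in pituitary tumors.

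**Figure D5:**
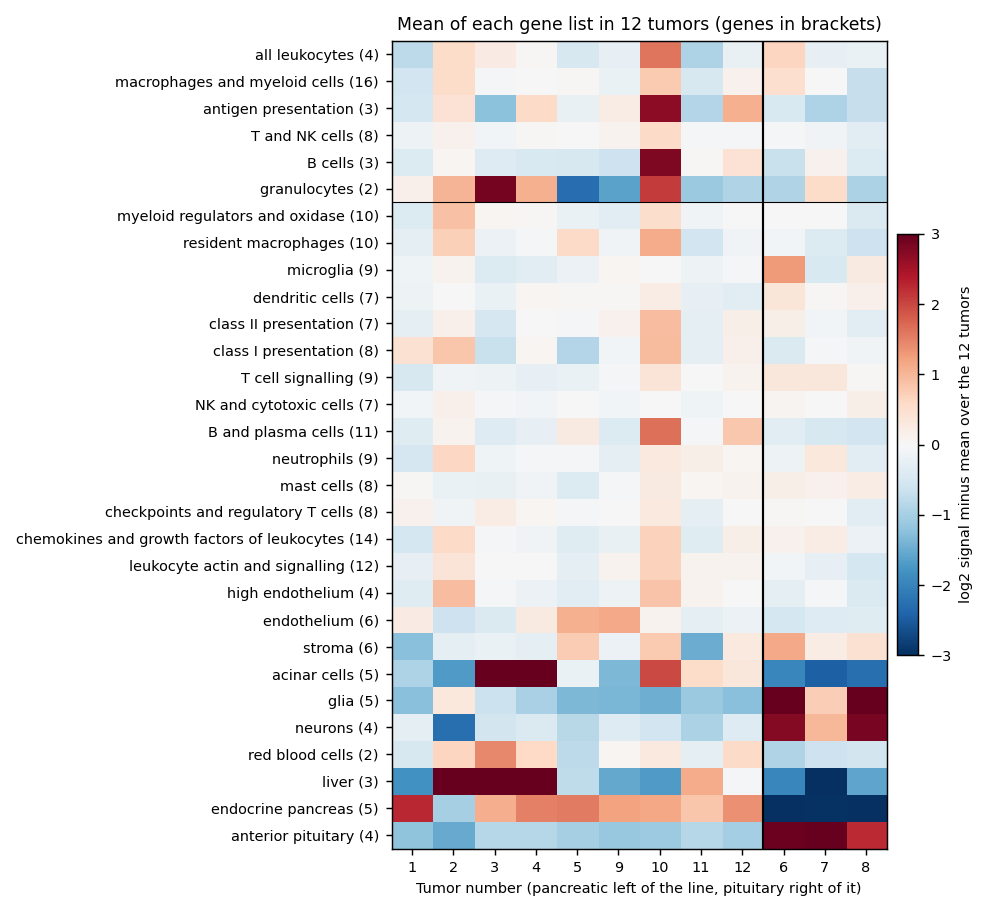
Mean over the genes of each list (rows, genes in brackets, leukocyte genes by role in the upper 6 rows) in 12 tumors (columns, pancreatic left of the line), each gene minus its mean over the 12 tumors on the log2 scale, with values beyond 3 drawn as 3. Tumor 10 is highest for 5 of the 6 roles, glia and neurons are high in pituitary tumors 6 and 8, and liver genes are high in pancreatic tumors 2, 3 and 4.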

How the data were processed

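Total RNA of 9 pancreatic and 3 pituitary tumors was hybridized to Affymetrix MG-430_2.0 arrays. The authors deposited log2 signals normalized between arrays, with Partek named in the submitters' processing notes, without a version. The paper's methods leave unstated which normalization made these values, and they were used as deposited. All columns were mapped to tumors by their labels. The number of arrays limits the precision, and p-values measure only the spread between these tumors. Arrays of normal pancreas were not analysed here.

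Of 45101 probe sets, 64 controls were left out. In the platform annotation 34945 of the 45037 others carry 1 symbol, 932 several and 9160 none in the table used. For each of 18193 genes the probe set of highest mean over the 12 tumors was taken. Sites were compared with lmFit and eBayes of limma 3.58.1 (R 4.3.3), adjusted after Benjamini-Hochberg over all probe sets, threshold 0.05, and single genes by an exact permutation of all 220 splits (smallest p 0.00455). The fit was tested on simulated data. Correlations used exact permutations of pairings, and an outlying pancreatic tumor was sought by Dixon's test (critical value 0.493). Other steps ran in Python 3.11.15 with pandas 2.3.3, numpy 2.4.6, matplotlib 3.10.9 and scipy 1.17.1.

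The 36 genes, 24 further lists (192 genes, 173 measured), 15 pairs and the sequences shown were chosen with earlier results of these data known. The text accounts for all 36 genes. It names the first 2 measured genes of each list, up to 4 genes of each list past the threshold, and the 5 genes most like Csf1r, Cd3e, Cd79a and S100a8. A further 14 genes were named after their values were seen. Alternatives were median centring, quantile normalization, array weights, trended and robust or unmoderated variance, a filter at the median probe set, averaging over all probe sets of a gene, each tumor left out in turn, and 3 groups of tumors left out.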

Additional observations from a re-analysis of the deposited data

Results flagged for a closer look

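Among 124 named genes, 23 had 1 pancreatic tumor far from the other 8 by Dixon's test at the 5% level, 16 of them in tumor 10 and 5 in tumor 2. Chance gives about 5% of groups, and 16.2% of all genes had such a tumor. The 124 genes include those sought as most like Cd3e and Cd79a, which were themselves outlying in tumor 10. They also include 14 genes named after their values were seen. The count for tumor 10 among the 124 was thus in part set by how they were picked. Of the 36 leukocyte genes there were 4, all high in tumor 10. These were Cd3e with 6.68 (5.69 to 6.05 in the other 8), Cd79a with 7.73 (4.51 to 5.66), Cd79b with 7.55 (4.17 to 5.21) and Ms4a1 with 8.01 (4.28 to 5.40).

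Further leukocyte genes high in tumor 10 were Cd2 with 6.21 (3.58 to 4.85 in the other 8), Tmem119 with 7.47 (5.43 to 6.28), Pou2af1, a coactivator of B cells, with 5.67 (2.87 to 3.14), Igkv6-14 with 5.28 (3.23 to 4.00), Cxcl13 with 10.64 (5.90 to 7.14) and Marco with 8.00 (4.33 to 5.50). Of the 4 measured genes of high endothelium, Glycam1 and Madcam1 had 7.36 (4.23 to 4.88) and 5.58 (4.61 to 4.91), while the mean of the 4 was highest in tumor 2. Among genes similar in course to Cd3e or Cd79a, Alox15, a lipoxygenase, had 6.46 (4.26 to 5.03), Wt1, a factor of mesothelium, had 6.55 (3.21 to 4.14), Pirt had 6.54 (4.13 to 4.77) and Adgrd1 had 7.88 (4.31 to 4.87).

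In tumor 2, Aqp4 had 7.61 (2.91 to 3.66 in the other 8), Slc1a2 had 7.14 (3.80 to 4.77) and Pitx1 had 5.64 (5.06 to 5.33). Isl1 and Pomc were low there, with 8.76 (11.44 to 12.95) and 4.85 (7.24 to 8.48). P2ry12 was low in tumor 4, with 3.64 (3.88 to 4.05), at signals far below the array median. Ccl8 was high in tumor 12, with 9.96 (5.65 to 7.44).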

How the results depend on the processing

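No paired analysis was possible because the labels do not tell which tumors of the 2 sites came from the same mouse. Over all alternatives run, 0 of the 36 genes passed except with array weights, where 1 was higher (Itgax) and 1 lower (Cx3cr1), and with pituitary tumor 7 left out, where Cx3cr1 was lower. With 1 tumor left out at a time the count was thus 0 higher and 0 to 1 lower, and 0 to 2 genes had groups that did not overlap. Of all probe sets, 533 were higher and 1552 lower. With array weights 1849 were higher and 3179 lower, without moderation 967 were lower, and among probe sets above the median, where fewer were tested, 926 were lower. With 1 tumor left out 172 to 886 were higher and 656 to 2000 lower, fewest without pituitary tumor 6, and most without pancreatic tumor 2 for higher and without pituitary tumor 7 for lower. Without pancreatic tumors 10, 11 and 12, 214 and 571 passed, and without pituitary tumors 6 and 8, where the lone pituitary tumor is assumed to vary like the others, 61 and 488. Among the 16 genes with a difference over 0.5 in size, it changed sign for Coro1a (0.48) and Csf1r (0.15) without pituitary tumors 6 and 8, for S100a8 and S100a9 without pancreatic tumors 2, 3 and 4 (-0.24 and -0.094) or pituitary tumors 6 and 8 (-0.36 and -0.45), and for Cd14 with 1 tumor left out (-1.33 to 0.066). It also changed sign under some alternative for 14 of the 20 genes with a smaller difference, such as Cd79b (-1.70 to 0.27), C1qb (-0.57 to 0.47), Mrc1 (-0.75 to 0.32), Tyrobp (-0.58 to 0.20) and Ptprc (-0.015 to 0.67). Of list genes past the threshold, Gad1 changed sign without pituitary tumors 6 and 8 (0.030). Of 15 pairs, 7 passed after quantile normalization in place of 3, and 2 to 4 with 1 tumor left out. With 1 tumor left out, r was -0.49 to 0.22 for Csf1r and Cd68, -0.52 to 0.36 for C1qa and C1qb, -0.43 to 0.76 for Ptprc and Cd79a, -0.24 to 0.77 for H2-Aa and Cd79a and -0.25 to 0.37 for Itgam and S100a8. The causes were not tested. Over single genes and pairs, 832 values kept direction and side of the threshold, 56 lost a call, 11 gained one and 15 reversed.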

Other observations

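Growth hormone, Gh, had signals of 14.65, 14.80 and 14.87 in pituitary tumors 6, 7 and 8, where its neighbour Cd79b had 3.97, 6.69 and 5.47, and 5.64 to 6.27 in the pancreatic tumors. The other 3 Gh probe sets, whose identifiers mark possible cross-hybridization, set pancreatic tumor 5 apart. They had 6.61, 6.69 and 5.83 in tumor 5, against 3.66 to 4.94, 4.45 to 5.42 and 3.26 to 3.86 in the other 8. Alas2, an enzyme of heme synthesis in red cell precursors, had 9.79 in pancreatic tumor 3, where S100a8 and S100a9 were also highest, 5.30 to 8.36 in the other 8, and 5.07 to 5.97 in pituitary tumors. Lcn2, a protein of neutrophils and of stressed epithelium, had 10.77 in pancreatic tumor 2 and 11.36 in pituitary tumor 7, the tumors with the highest Cd14 signal at each site, and 4.84 to 9.06 in the other pancreatic and 6.30 to 7.46 in the other pituitary tumors. Ccl8, a chemokine of monocytes, had 9.96 in pancreatic tumor 12, 5.65 to 7.44 in the other 8 and 6.21 to 6.90 in the pituitary tumors. Gh, Lcn2 and Ccl8 were named after their values were seen.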
